A study of Mus musculus with 31 samples.

Results

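Dams that received the selective serotonin reuptake inhibitor fluoxetine were compared by diet, a folic acid (FA) supplemented diet against breeder diet, to ask whether FA altered the mammary gland transcriptome when the drug was present. The comparison used the 15 libraries whose labels give fluoxetine as the drug, out of 31 in the series, and none of the saline libraries. Breeder diet + fluoxetine (BF) held 7 libraries and FA diet + fluoxetine (FF) held 8, each from the whole mammary gland of 1 dam. All dams were C57BL/6J females. Breeder diet contained 4 mg/kg FA and the supplemented diet 24 mg/kg, both fed from 2 weeks before mating. Every dam of both groups was injected intraperitoneally with 20 mg/kg fluoxetine hydrochloride per day from embryonic day 13 until tissue was taken on lactation day 10, so no value below separates an effect of the drug. The study's methods give the larger n to the BF group and the labels give it to FF, and the groups here follow the labels.

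Folate carries one-carbon units. The folate cycle passes carbon to thymidylate, purines and, through methionine synthase, to S-adenosylmethionine, the methyl donor of DNA methyltransferases. The lactating mammary gland secretes folate into milk, where much of it is bound to a soluble folate receptor, and it devotes most of its messenger RNA to caseins and whey proteins. Serotonin (5HT) is made in the mammary epithelium by tryptophan hydroxylase 1, is taken back up by the transporter that fluoxetine blocks, and acts within the gland on milk synthesis, tight junctions and the release of parathyroid hormone related protein (PTHrP).

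FF dam 3 and BF dam 13 stood apart from the other libraries in the make-up of their counts. Milk protein genes took 63.1% to 71.4% of counts in the other BF dams and 64.3% to 70.8% in the other FF dams, against 51.4% in BF dam 13 and 18.1% in FF dam 3. The 20 most abundant genes took 39.3% of counts in FF dam 3 and 60.5% in BF dam 13, against 72.6% or more in the other libraries. The share of milk protein counts averaged 65.6% ± 6.75 (SD) in the 7 BF dams and 62.1% ± 17.9 in the 8 FF dams, or 68.4% ± 2.15 without dam 3, and the groups were not separated by an exact two-sided permutation test (p = 0.878, and 0.878 adjusted over 5 library measures). Total counts were 17680150 to 23875965 in BF and 18919573 to 36000439 in FF (exact permutation p = 0.0982, adjusted p = 0.491). FF dam 3 also had the highest summed level of fibroblast and collagen genes, at 1620 CPM (counts scaled to a common library size, here with the TMM normalization factors) against 152 to 425 in all others. In bulk tissue, fewer cells of a type and less RNA per cell cannot be told apart. Results are therefore given with FF dam 3 and, where it matters, without it, and what part these 2 libraries have in any gene's value was not tested beyond leaving them out.

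**Figure D1:**
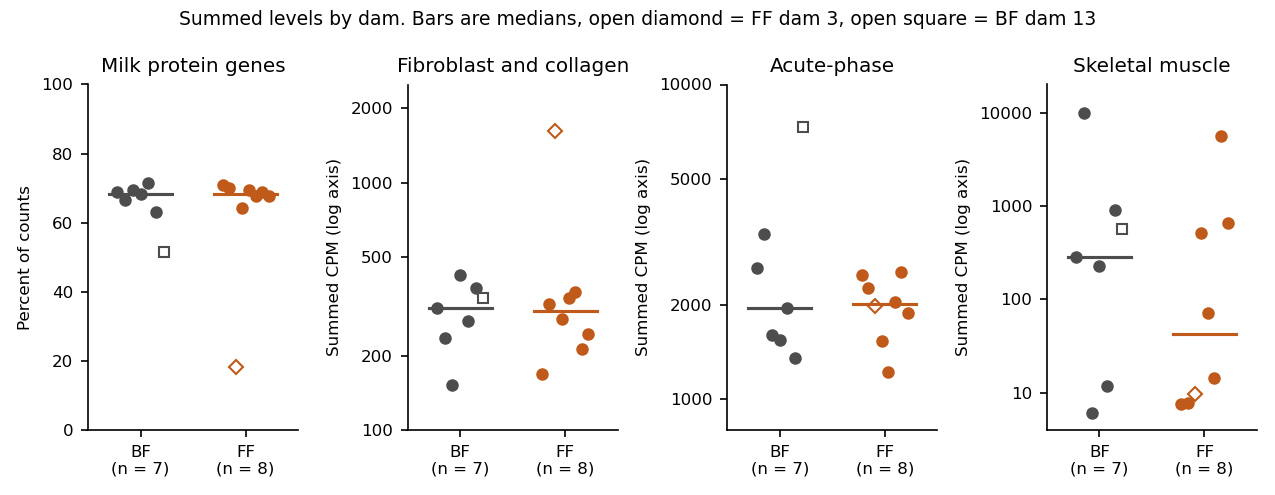
Milk protein genes as percent of counts (linear axis), and the summed CPM of fibroblast and collagen, acute-phase and skeletal muscle genes (log axes), for each BF and FF dam, with bars at the group medians. FF dam 3 (open diamond) sits at 18.1% milk protein counts and 1620 CPM of fibroblast and collagen genes, and BF dam 13 (open square) at 51.4% milk protein counts with the highest acute-phase sum, 7334 CPM.

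No gene was called as different between FF and BF at the study's false discovery rate (FDR) of 10%. Of 13243 genes tested with edgeR's quasi-likelihood test, 0 were called (0%), and the smallest Benjamini-Hochberg adjusted p was 0.99996. Without FF dam 3, 0 of 13067 genes were called (smallest adjusted p 0.9999), and the same was true with BF dam 13 left out as well. An unadjusted p of 0.05 or below was found for 226 genes (1.71% of those tested), of which 158 (1.19%) had higher and 68 (0.513%) lower levels in FF. Without FF dam 3 the split of the 228 (1.74%) turned, to 101 higher (0.773%) and 127 lower (0.972%), and without both dams the 247 (1.87%) were 123 higher (0.933%) and 124 lower (0.94%). At 0.01 or below, 18 genes (0.136%) were found, 11 higher (0.0831%) and 7 lower (0.0529%). Without FF dam 3 these were 22 (0.168%), 7 higher (0.0536%) and 15 lower (0.115%), and without both dams 22 (0.167%), 8 higher (0.0607%) and 14 lower (0.106%). In 0 of the 13243 genes (0%) did the levels of the FF dams lie wholly apart from those of the BF dams. All fold changes below are therefore values with their errors, and none is a call.

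The precision was enough to bound the diet difference for most genes. The 95% confidence interval of the log2 fold change lay within 2-fold in either direction for 9335 genes (70.5%), and for 10194 (78%) without FF dam 3. The median log2 fold change of all genes was 0.02, with a median standard error (SE) of 0.25. The point estimate exceeded 2-fold for 301 genes with all dams and for 115 without FF dam 3. The common dispersion, a measure of the spread between dams of one group, was 0.195 with all dams and 0.129 without FF dam 3.

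Among the 8 genes of smallest p with higher levels in FF were several that cells induce quickly after stimulation. *Rgs2* (ENSMUSG00000026360, GRCm39 chromosome 1, 143875076 to 143879899), which encodes a regulator that ends signalling through G protein alpha q, had CPM of 0.759, 1.30 and 3.004 (lowest, median and highest) in BF and 1.85, 3.05 and 6.55 in FF. All 8 FF dams were above the BF median and 4 of 8 above the highest BF dam, so the groups overlapped. The log2 fold change was 1.11 ± 0.32 (SE, unadjusted p = 0.00262), and 0.89 ± 0.29 without FF dam 3, the highest library.

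*Fos* (ENSMUSG00000021250, chromosome 12, 85520658 to 85524047), a subunit of the AP-1 transcription factor and the classic immediate early gene, had a narrow range in BF, with CPM of 6.44, 7.92 and 12.2. In FF it spread from 4.94 over a median of 21.0 to 50.9. In FF, 5 dams were above every BF dam, 1 was below every BF dam, and FF dam 3, at 8.48, was within the BF range. The log2 fold change was 1.30 ± 0.38 (unadjusted p = 0.0034) and 1.42 ± 0.38 without FF dam 3. With FF dam 6, the highest library, left out it was 0.995.

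*Klf4*, a zinc finger factor that also responds early to stimuli and marks differentiating epithelium, had CPM of 1.29, 1.71 and 2.28 in BF and 1.72, 2.68 and 18.1 in FF. All 8 FF dams were above the BF median and 5 of 8 above its maximum, and the highest FF dam after dam 3 was at 3.99. Its log2 fold change of 1.46 ± 0.46 (unadjusted p = 0.0050) was 0.67 ± 0.24 without that dam (unadjusted p = 0.0131). *Nfil3*, a repressor of the basic leucine zipper family that acts in the circadian clock and in lymphocytes, had CPM of 1.27, 1.87 and 3.53 in BF and 1.54, 3.90 and 9.61 in FF. Of the FF dams, 7 were above the BF median and 4 above its maximum, and the log2 fold change was 1.08 ± 0.35, or 1.17 ± 0.33 without FF dam 3.

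**Figure D2:**
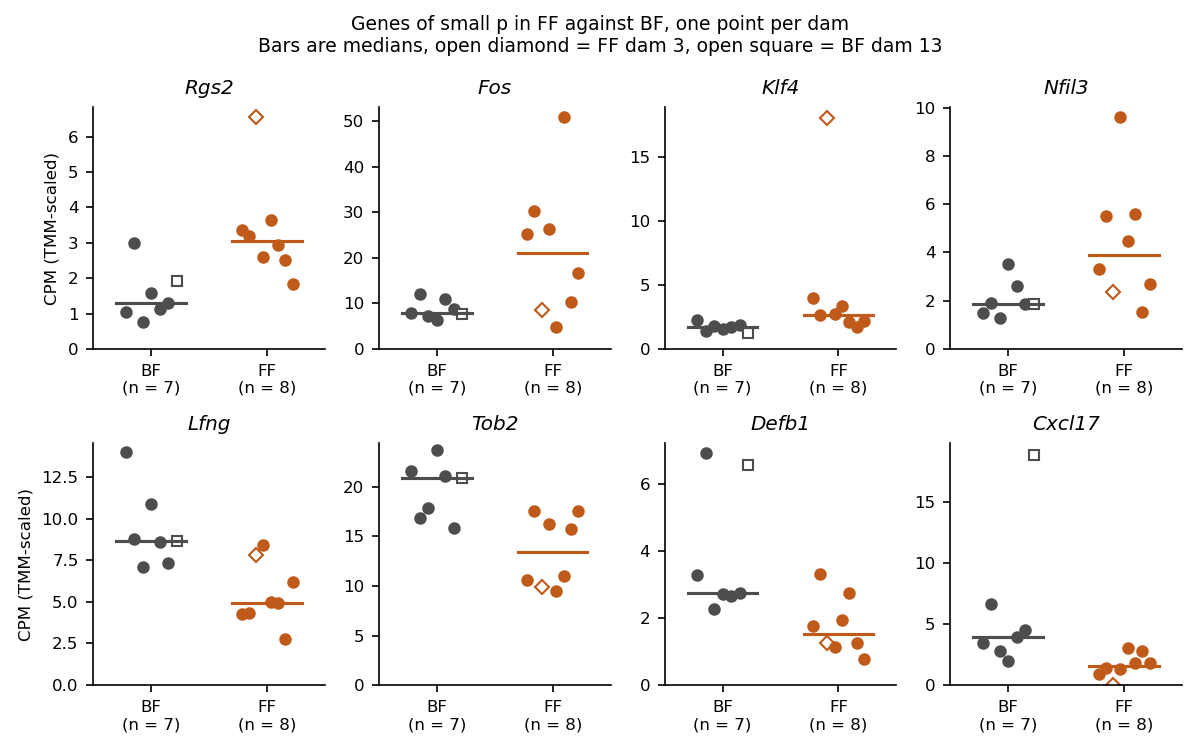
TMM-scaled CPM (linear axes) of 4 genes of small p with higher levels in FF (top) and 4 with lower levels (bottom), 1 point per dam, bars at the medians, FF dam 3 as an open diamond and BF dam 13 as an open square. The groups overlap in every panel. For *Rgs2* and *Klf4* the highest point is FF dam 3, for *Fos* it is another FF dam at 50.9 CPM, and for *Lfng* 6 of 8 FF dams lie below the lowest BF dam.

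The stretches before *Fos* and *Rgs2* are shown because the short motif TGACG, the core of the cAMP response element that CREB binds, was found in both. The motif was searched on both strands (as TGACG or CGTCA, with overlapping hits counted) in the 250 bases before the transcription start given by RefSeq, after the genes' values were known. It was present in 5836 of 32851 promoters of that length (17.8%), and in 6 of the 8 genes of smallest p with higher levels in FF (*Rgs2*, *Fos*, *Klf4*, *Nfil3*, *Nostrin* and *Rad18*). Of the 8 genes of smallest p with lower levels in FF, 4 have a promoter entry, and 0 of these 4 held the motif. These shares are not like for like. The 17.8% is over all promoter entries, not those of the genes tested, while the 6 and the 0 count genes with a hit in any entry. A gene can have more than 1 entry, as *Rad18* does. This is a description of letters, no enrichment was tested, and binding was not measured. The sequences are on GRCm39, by an exact match of the RefSeq promoter to that genome, 5′ to 3′ on the gene's strand, with the motif in capitals and the bases inside the annotated gene left out. They are chr12:85520414-85520657 (plus strand, motif starting 129 and 66 bases before the start) and chr1:143879900-143880137 (minus strand, 185 and 67 bases before).
Fos: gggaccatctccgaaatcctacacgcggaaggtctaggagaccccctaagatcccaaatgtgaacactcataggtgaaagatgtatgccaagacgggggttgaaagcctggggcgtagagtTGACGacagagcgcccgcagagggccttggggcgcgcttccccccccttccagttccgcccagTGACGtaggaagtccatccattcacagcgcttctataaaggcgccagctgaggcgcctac
Rgs2: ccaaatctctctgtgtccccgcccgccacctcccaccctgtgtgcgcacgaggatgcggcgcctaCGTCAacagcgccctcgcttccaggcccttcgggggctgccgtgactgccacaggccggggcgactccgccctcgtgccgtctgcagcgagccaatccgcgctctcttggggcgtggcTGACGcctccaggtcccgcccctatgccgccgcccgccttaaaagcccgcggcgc

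The wider group of immediate early genes had higher levels in FF in most members, without a call. Of 15 members that passed the filter on low counts, out of 18 listed, 13 had higher and 2 lower levels. The median log2 fold change was 0.58 beside 0.02 for all genes. An unadjusted p of 0.05 or below was found for 3 members, all higher, against 1.19% of all genes. They were *Fos* and *Klf4*, already described above, and *Egr1*, so this count is not separate from those genes. *Egr1* was at 1.08 ± 0.42, and at 0.64 ± 0.33 without FF dam 3 (unadjusted p = 0.0705). The summed level of the list had medians of 277 CPM in BF and 283 in FF. Without FF dam 3, 11 members had higher and 4 lower levels with a median of 0.31. In that fit 3 were at 0.05 or below, all higher, against 0.773% of all genes. With BF dam 13 left out too the median was 0.14. *Junb*, an AP-1 partner of *Fos*, had a log2 fold change of 0.69 ± 0.41, and the nuclear receptor *Nr4a1* one of 1.18 ± 0.75. *Jund* went the other way, at -0.32 ± 0.21.

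The other 4 of the 8 had low levels. *Nostrin*, which traffics endothelial nitric oxide synthase, had a median of 0.519 CPM in BF and 1.15 in FF, with 6 of 8 FF dams above the highest BF dam and a log2 fold change of 1.03 ± 0.34. *Cpt1c*, a neuronal member of the carnitine palmitoyltransferase family, had medians of 0.429 and 1.003 CPM (1.46 ± 0.48), and FF dam 3 was its highest library at 2.62. *Rad18*, a ubiquitin ligase of DNA damage tolerance, had medians of 0.730 and 1.75 CPM (0.97 ± 0.32), and *Chtf18*, part of a clamp loader used in DNA replication, 0.172 and 0.863 (1.77 ± 0.60). For both, 8 of 8 FF dams were above the BF median and 5 of 8 above its maximum. *Snph*, a protein that anchors mitochondria in axons, was the gene of smallest p with higher levels once FF dam 3 was left out. Its CPM were 0.316, 0.728 and 1.46 in BF and 0.554, 1.67 and 2.61 in FF, where dam 3 was lowest, and the log2 fold change was 1.15 ± 0.39 with that dam and 1.28 ± 0.35 without it.

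The gene with the second smallest p had lower levels in FF. *Lfng* (ENSMUSG00000029570, chromosome 5, 140593075 to 140601300) encodes the fucose-specific N-acetylglucosaminyltransferase lunatic fringe, which modifies Notch receptors and alters their response to ligands. Its CPM were 7.08, 8.70 and 14.0 in BF and 2.75, 4.97 and 8.43 in FF. All 8 FF dams were below the BF median and 6 of 8 below the lowest BF dam. The log2 fold change was -0.77 ± 0.22 (unadjusted p = 0.00273) and -0.87 ± 0.22 without FF dam 3 (unadjusted p = 6.6e-04), the smallest p of that fit. It ranged from -0.88 to -0.65 when each dam was left out in turn. Of 17 members of the Notch pathway tested, 10 had higher and 7 lower levels, with a median of 0.06 (-0.16 without FF dam 3). *Lfng* was the only member at p of 0.05 or below, against 0.513% of all genes with lower levels.

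*Tob2*, an antiproliferative protein that recruits the deadenylase complex, had CPM of 15.8, 21.0 and 23.7 in BF and 9.46, 13.4 and 17.5 in FF. All 8 FF dams were below the BF median and 5 of 8 below the lowest BF dam, with a log2 fold change of -0.55 ± 0.17 (-0.49 ± 0.16 without FF dam 3). *Abcb9*, a lysosomal peptide transporter, had medians of 17.0 CPM in BF and 12.3 in FF (-0.62 ± 0.23), with FF dam 3 lowest at 4.37. *Igkv9-124*, an immunoglobulin light chain variable segment, had medians of 1.01 and 0.0876 CPM (-2.33 ± 0.82). Segments of this family share sequence, so its counts are uncertain.

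Genes of 3 secreted defence or digestive proteins were among the genes of smallest p with lower levels. *Defb1*, an epithelial antimicrobial defensin, had CPM of 2.28, 2.74 and 6.91 in BF and 0.785, 1.51 and 3.32 in FF, with 6 of 8 FF dams below the lowest BF dam and a log2 fold change of -1.13 ± 0.34. *Cxcl17*, a mucosal chemokine, had CPM of 1.99, 3.94 and 18.9 in BF and 0, 1.58 and 3.01 in FF. BF dam 13 was its highest library and FF dam 3 had no count, and the log2 fold change of -1.89 ± 0.64 was -1.05 ± 0.31 without these 2 dams (unadjusted p = 0.00315). *Rnase1*, a secreted ribonuclease, was at 77.7 CPM in BF dam 13 and at 3.73 or below in every other dam. Its log2 fold change of -4.20 ± 1.25 was -1.29 without BF dam 13.

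A further 3 genes were among those of smallest p only in the fit without FF dam 3, their highest FF library. *Clca3a2*, a chloride channel regulator of secretory epithelium, had CPM of 3.27 to 31.5 in BF and 1.201 to 5.68 in the other FF dams against 27.5 in FF dam 3, with log2 fold changes of -1.18 ± 0.68 with it and -2.18 ± 0.53 without it. *Wfdc2*, a secreted relative of whey acidic protein, was at 0.205 to 3.86 CPM in BF, 0.139 to 1.35 in the other FF dams and 5.90 in FF dam 3 (-0.68 ± 0.70 with it, -1.91 ± 0.52 without it). *Ppp1r9b*, the scaffold spinophilin, was at 23.7 to 31.5 CPM in BF, 18.2 to 25.2 in the other FF dams and 43.4 in FF dam 3 (-0.21 ± 0.17 with it, -0.37 ± 0.12 without it).

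Genes of folate uptake and one-carbon metabolism had no call between the diets under fluoxetine. Of 45 genes listed, 37 passed the filter, 13 with higher and 24 with lower levels in FF, and 0 were at an unadjusted p of 0.05 or below with or without FF dam 3, against 1.71% of all genes (1.74% without that dam), a share at which a list of this length can hold none. With BF dam 13 left out as well, *Sardh*, which breaks down sarcosine, was at 0.46 ± 0.16 (unadjusted p = 0.012) and *Mthfd2* at -0.66 ± 0.31 (unadjusted p = 0.0427). The median log2 fold change was -0.08, and 0.01 without FF dam 3. The 95% interval lay within 2-fold for 31 of the 37, as it did for 70.5% of all genes, so that smaller differences are not bounded.

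By role, the receptor *Folr1*, which binds folate with high affinity, had CPM of 195, 320 and 422 in BF and 29.0, 379 and 471 in FF, with FF dam 3 lowest. Its log2 fold change was 0.12 ± 0.36 and 0.29 ± 0.16 without FF dam 3 (unadjusted p = 0.0789). The reduced folate carrier *Slc19a1* did not pass the filter, with 156 counts over the 15 libraries of which 73 were in FF dam 3, and the proton-coupled transporter *Slc46a1* had a log2 fold change of -0.01 ± 0.26. Within the cycle, *Mtr*, methionine synthase, had medians of 4.91 CPM in BF and 5.86 in FF (0.29 ± 0.21, and 0.36 ± 0.20 without FF dam 3). The mitochondrial serine hydroxymethyltransferase *Shmt2* had medians of 10.8 and 11.2 CPM (0.04 ± 0.17). The groups overlapped for both enzymes, with 2 of 8 FF dams above the highest BF dam for *Mtr* and 1 of 8 for *Shmt2*. The member of smallest p was *Mthfd2*, a mitochondrial methylenetetrahydrofolate dehydrogenase, with a log2 fold change of -0.64 ± 0.32 (unadjusted p = 0.0626), and *Mat2a*, which makes S-adenosylmethionine, was at -0.25 ± 0.16.

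**Figure D3:**
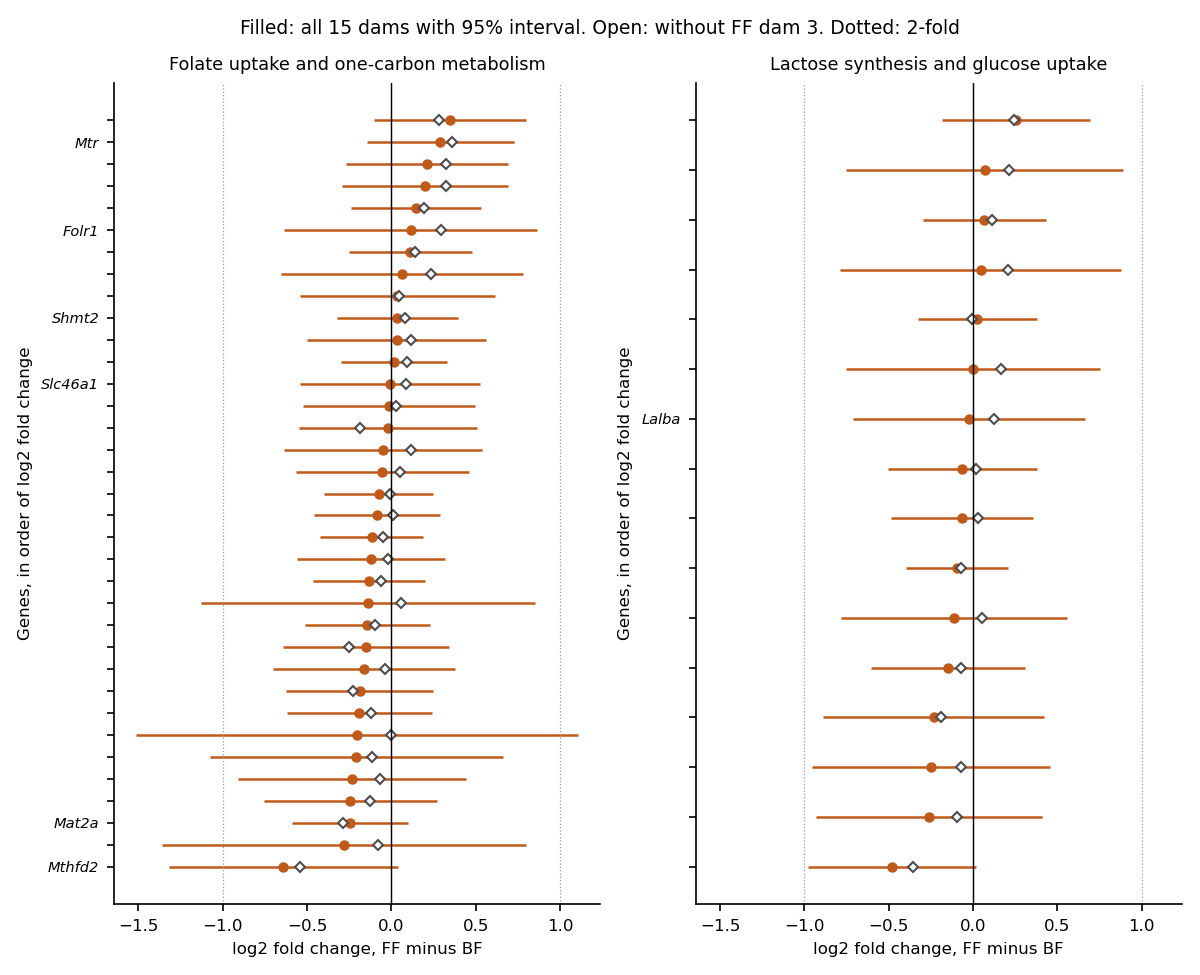
log2 fold change (FF minus BF) of 35 of the 37 tested folate and one-carbon genes (left) and of the 16 tested genes of lactose synthesis and glucose uptake (right), in order of value with the genes named in the text labelled, with 95% confidence intervals from all 15 dams (filled points) and the value without FF dam 3 (open diamonds). Every interval includes 0, and dotted lines mark 2-fold, which 5 of the 35 folate intervals and 0 of the 16 lactose intervals reach.

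The genes that write, erase and read DNA methylation had no call either. Of 17 genes tested 8 had higher and 9 lower levels, with a median log2 fold change of 0.00 (-0.02 without FF dam 3), and 0 were at p of 0.05 or below, against 1.71% of all genes. The maintenance methyltransferase *Dnmt1* had CPM of 10.1, 12.9 and 17.2 in BF and 9.22, 14.0 and 18.8 in FF (0.10 ± 0.17). The de novo methyltransferase *Dnmt3a* had medians of 5.64 and 5.65 CPM, with FF dam 3 highest at 13.4, and log2 fold changes of 0.26 ± 0.24 with it and 0.02 ± 0.18 without it. *Dnmt3b* had medians of 0.812 and 0.842 CPM (-0.60 ± 0.46). *Uhrf1*, which brings *Dnmt1* to replicated DNA and is itself made in dividing cells, was at 1.34 ± 0.74. Genes of ATP-dependent chromatin remodelling and Polycomb were 14 higher and 21 lower of 35 with all dams (median -0.03). Without FF dam 3 they were 9 higher and 26 lower (median -0.08), and without BF dam 13 as well 10 and 25 (median -0.07). With all dams and without FF dam 3, 0 were at p of 0.05 or below. With all dams, 32 intervals lay within 2-fold. DNA methylation itself was not measured here.

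The most abundant transcripts were those of milk, and their difference between diets was smaller than the spread between dams. *Wap*, whey acidic protein, had CPM of 98690, 206000 and 290400 in BF and 15960, 202900 and 317400 in FF, with a log2 fold change of -0.04 ± 0.44. The lowest library of each group was BF dam 13 and FF dam 3. *Csn2*, beta-casein, had a log2 fold change of -0.02 ± 0.42, *Csn1s1*, alpha-S1-casein, -0.13 ± 0.41, *Csn1s2a* -0.12 ± 0.38 and *Csn1s2b* -0.04 ± 0.43. *Lalba*, alpha-lactalbumin, which turns galactosyltransferase into lactose synthase, had CPM of 2476, 3275 and 5024 in BF and 773, 3159 and 6357 in FF (-0.03 ± 0.33). All 13 milk protein genes had values below 0, with a median of -0.12, and 9 of 13 were above 0 without FF dam 3, with a median of 0.05. Leaving out BF dam 13 as well gave 7 above and 6 below 0 and a median of 0.01.

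Genes that make lactose and milk fat also had medians near 0. Of 16 genes of lactose synthesis and glucose uptake, 5 had higher and 11 lower levels (median -0.07, or 0.02 without FF dam 3), with 0 at p of 0.05 or below and 16 of 16 intervals within 2-fold. Of 20 genes of fatty acid synthesis, elongation and desaturation the median was -0.08 (-0.02 without FF dam 3), and of 22 genes of triglyceride assembly and milk fat secretion -0.12 (0.01), again with 0 at p of 0.05 or below in either. *Elovl6*, a fatty acid elongase, had CPM of 38.7, 60.8 and 139 in BF and 38.2, 53.5 and 119 in FF (-0.01 ± 0.29). Cholesterol synthesis had 8 higher and 13 lower of 21 (median -0.04), which was 16 and 5 without FF dam 3 (median 0.09) and 19 and 2 without both dams (median 0.14). In the first 2 fits 0 were at p of 0.05 or below. The fit without both dams was chosen after seeing the data, and its count at that threshold is not given here. Glycolysis genes were 8 higher and 9 lower of 17 (median -0.05).

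Transcripts of 5HT synthesis and signalling were rare in these libraries. *Tph1*, tryptophan hydroxylase 1, had CPM of 0.311, 0.609 and 1.55 in BF and 0.284, 0.708 and 13.7 in FF, where dam 3 was highest and the next dam was at 1.13. With that dam the log2 fold change was 1.70 ± 0.81 (unadjusted p = 0.0502), and without it -0.19 ± 0.44. The reuptake transporter *Slc6a4*, the target of fluoxetine, had 27 counts over all libraries, in 3 of them, and *Ddc*, the decarboxylase after *Tph1*, had 4, so a difference in either was not detectable at this depth. Of 11 tested genes of 5HT and dopamine synthesis, transport and breakdown, 9 had higher and 2 lower levels with FF dam 3 and 5 and 6 without it, with 0 at p of 0.05 or below. Of 14 5HT receptors listed, 1 passed the filter.

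PTHrP and calcium genes had intervals that included 0. *Pthlh*, which encodes PTHrP, had CPM of 15.3, 28.3 and 46.7 in BF and 1.18, 21.0 and 33.9 in FF. FF dam 3 was the lowest library by far, 2 of 8 FF dams were above the BF median, and the log2 fold change was -0.42 ± 0.43, or -0.23 ± 0.22 without dam 3. Of 21 genes of calcium pumps, channels and store-operated entry, 11 had higher and 10 lower levels, with a median of 0.00, 18 intervals within 2-fold and 0 at p of 0.05 or below. *Atp2b2*, the plasma membrane pump that carries calcium into milk, was at -0.06 ± 0.37 (0.12 without FF dam 3). Of 12 G protein alpha subunit genes, 8 had higher and 4 lower levels (median 0.03). Without FF dam 3 these were 5 higher and 6 lower of 11 tested (median -0.003).

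Acute-phase and secreted defence genes were dominated by single dams. Of 15 tested, 5 had higher and 10 lower levels in FF, with 3 at an unadjusted p of 0.05 or below, all lower, against 0.513% of all genes, and a median log2 fold change of -0.40. The median was -1.04 without FF dam 3 and -0.09 without that dam and BF dam 13. *Saa1*, a serum amyloid A, had CPM of 1.40, 2.91 and 407 in BF and 0.771, 19.6 and 350 in FF. Its 2 highest libraries were BF dam 13 and FF dam 3, and the log2 fold change was -0.40 ± 1.38. *Saa2* had medians of 1.01 and 3.57 CPM with maxima of 205 and 335 in the same 2 dams (0.08 ± 1.65, and -3.01 ± 1.48 without FF dam 3). *Saa3*, made by epithelium and macrophages, had CPM of 0.936, 3.73 and 54.1 in BF and 0.350, 5.63 and 18.4 in FF (-1.01 ± 0.89).

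The 3 members at small p each rested on 1 BF dam. *Slpi*, an inhibitor of neutrophil elastase, was at 345 CPM in BF dam 13 and at 25.3 or below in all others. Its log2 fold change of -2.80 ± 1.03 was -0.08 without BF dam 13. *Wfdc17*, a related inhibitor of myeloid cells, was at 539 CPM in the same dam and at 51.2 or below elsewhere (-2.27 ± 0.97, and 0.34 without BF dam 13). *C4b*, complement component 4, was at 799 CPM in BF dam 5 and at 163 or below in the other 14 dams (-1.22 ± 0.50, and -0.37 without BF dam 5). The acute-phase sum was 1350 to 7334 CPM in BF and 1223 to 2545 in FF.

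**Figure D4:**
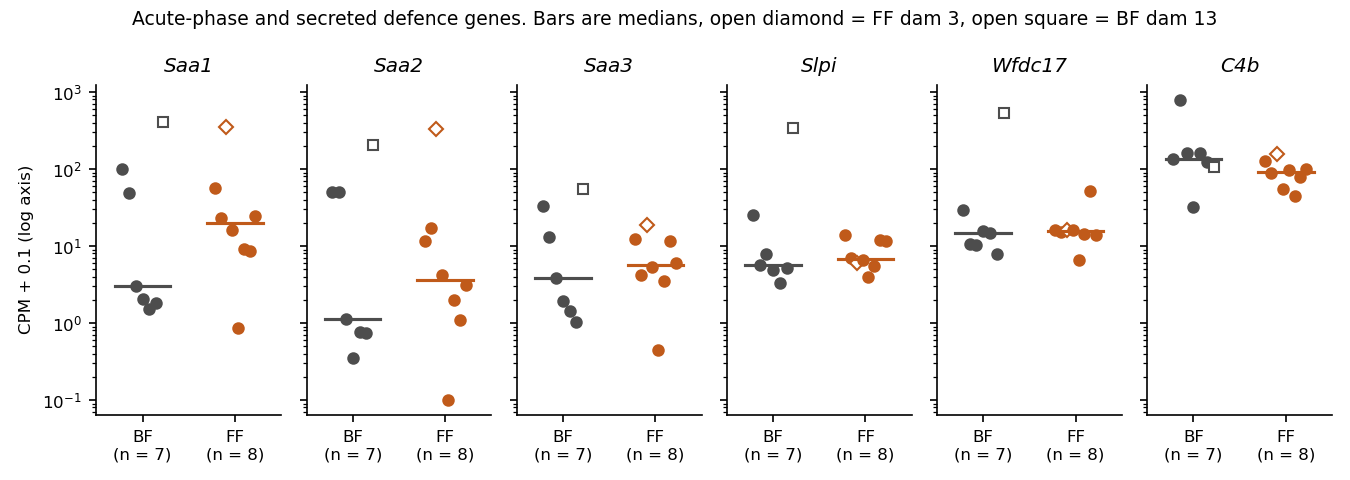
CPM with 0.1 added (log axis) of 6 acute-phase and secreted defence genes in each dam, bars at the medians, FF dam 3 as an open diamond and BF dam 13 as an open square. BF dam 13 is the highest BF library in all but *C4b*, where another BF dam reaches 799 CPM, and FF dam 3 is the highest FF library for *Saa1*, *Saa2*, *Saa3* and *C4b*.

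Among genes of other cell types, the fibroblast and macrophage lists turned when FF dam 3 was left out, and the skeletal muscle list did not. Fibroblast and collagen genes all had higher levels in FF (15 of 15, median log2 fold change 0.70, 2 at p of 0.05 or below against 1.19% of all genes), and without FF dam 3 this was 5 of 15 with a median of -0.24. *Fn1*, fibronectin, was at 61.7 CPM in FF dam 3 and at 0.822 to 6.55 in all others (1.91 ± 0.87, and 0.13 ± 0.39 without it). *Dpt*, dermatopontin, was at 73.4 CPM in FF dam 3 and at 2.85 to 13.9 elsewhere (1.53 ± 0.70, and 0.27 ± 0.33 without it). *Kit*, the stem cell factor receptor of mast cells and of a luminal progenitor subset, was at 57.6 CPM in FF dam 3 and at 1.63 or below elsewhere, and did not pass the filter once that dam was left out. Macrophage and MHC class II genes were 14 higher of 16 with FF dam 3 and 4 of 16 without it, when 3 were at p of 0.05 or below, all lower, against 0.972% of all genes. Skeletal muscle genes were lower in 17 of 17 with all dams (median -0.96, 0 at p of 0.05 or below). They were also lower in 17 of 17 without FF dam 3 (median -0.77) and without BF dam 13 as well (median -0.92). Their summed level ran from 6.07 to 9876 CPM in BF and from 7.62 to 5625 in FF, so that dams of 1 diet differed by far more than the diets did.

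Myoepithelial markers, the contractile basal cells that eject milk, had higher values in 10 of 11 with all dams (median 0.24) and in 10 of 11 without FF dam 3 (median 0.15), with 0 at p of 0.05 or below. *Pgm5*, a cytoskeletal protein of muscle cells, had CPM of 2.09, 3.05 and 4.04 in BF and 2.63, 3.51 and 4.78 in FF (0.20 ± 0.20). Luminal epithelial markers were 3 higher and 7 lower of 10 (median -0.11), and the summed level of the defining markers was 895 to 1284 CPM in BF and 619 to 1265 in FF. Endothelial markers were 9 higher of 12 (6 without FF dam 3), adipocyte genes 11 of 14 (4 without it) and plasma cell genes 3 of 11. Erythroid genes had lower values in 5 of 5 (median -0.19).

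Genes of proliferation, apoptosis and tissue remodelling had no call. Cell cycle and DNA replication genes were 17 higher and 7 lower of 24 (median 0.33, or 0.25 without FF dam 3), with 1 at p of 0.05 or below, higher, against 1.19% of all genes. That gene was *Bub1b*, a spindle checkpoint kinase, with medians of 0.364 CPM in BF and 0.944 in FF (1.30 ± 0.57), 6 of 8 FF dams above the highest BF dam and 1 FF dam below the lowest. Of 21 genes of STAT3 signalling and involution, 11 had higher and 10 lower levels (4 and 17 without FF dam 3), and *Bax*, which permeabilizes mitochondria in apoptosis, had CPM of 15.1, 20.4 and 30.5 in BF and 11.5, 15.6 and 26.6 in FF (-0.43 ± 0.18). *Smad3*, which carries transforming growth factor beta signals to the nucleus, had CPM of 26.8, 40.7 and 52.7 in BF and 17.5, 26.9 and 45.6 in FF, with 7 of 8 FF dams below the BF median (-0.51 ± 0.22). Its pathway was 10 higher and 6 lower of 16, or 4 and 12 without FF dam 3. *Marveld2*, tricellulin, which seals the corners between epithelial cells, had CPM of 4.73, 7.21 and 7.68 in BF and 2.89, 5.21 and 7.13 in FF, and all 8 FF dams were below the BF median (-0.42 ± 0.19). Tight junction genes as a whole were 5 higher and 10 lower of 15 (median -0.14).

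*Nr1d1*, the clock repressor REV-ERB alpha, had CPM of 23.7, 30.9 and 39.2 in BF and 19.1, 25.0 and 27.4 in FF, with all 8 FF dams below the BF median and a log2 fold change of -0.32 ± 0.14. It was the only one of 18 clock genes at p of 0.05 or below, against 0.513% of all genes with lower levels. Of the 18, 7 had higher and 11 lower levels. *Sox10*, a factor of Schwann cells that mammary epithelium also expresses, had CPM of 59.9, 102 and 110 in BF and 57.1, 73.0 and 86.1 in FF, again with all 8 FF dams below the BF median (-0.37 ± 0.15). Chaperones of the endoplasmic reticulum and the unfolded protein response were 16 higher and 4 lower of 20 with all dams (median 0.09) and 17 and 3 without FF dam 3 (median 0.15), with 0 at p of 0.05 or below and 19 intervals within 2-fold.

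**Figure D5:**
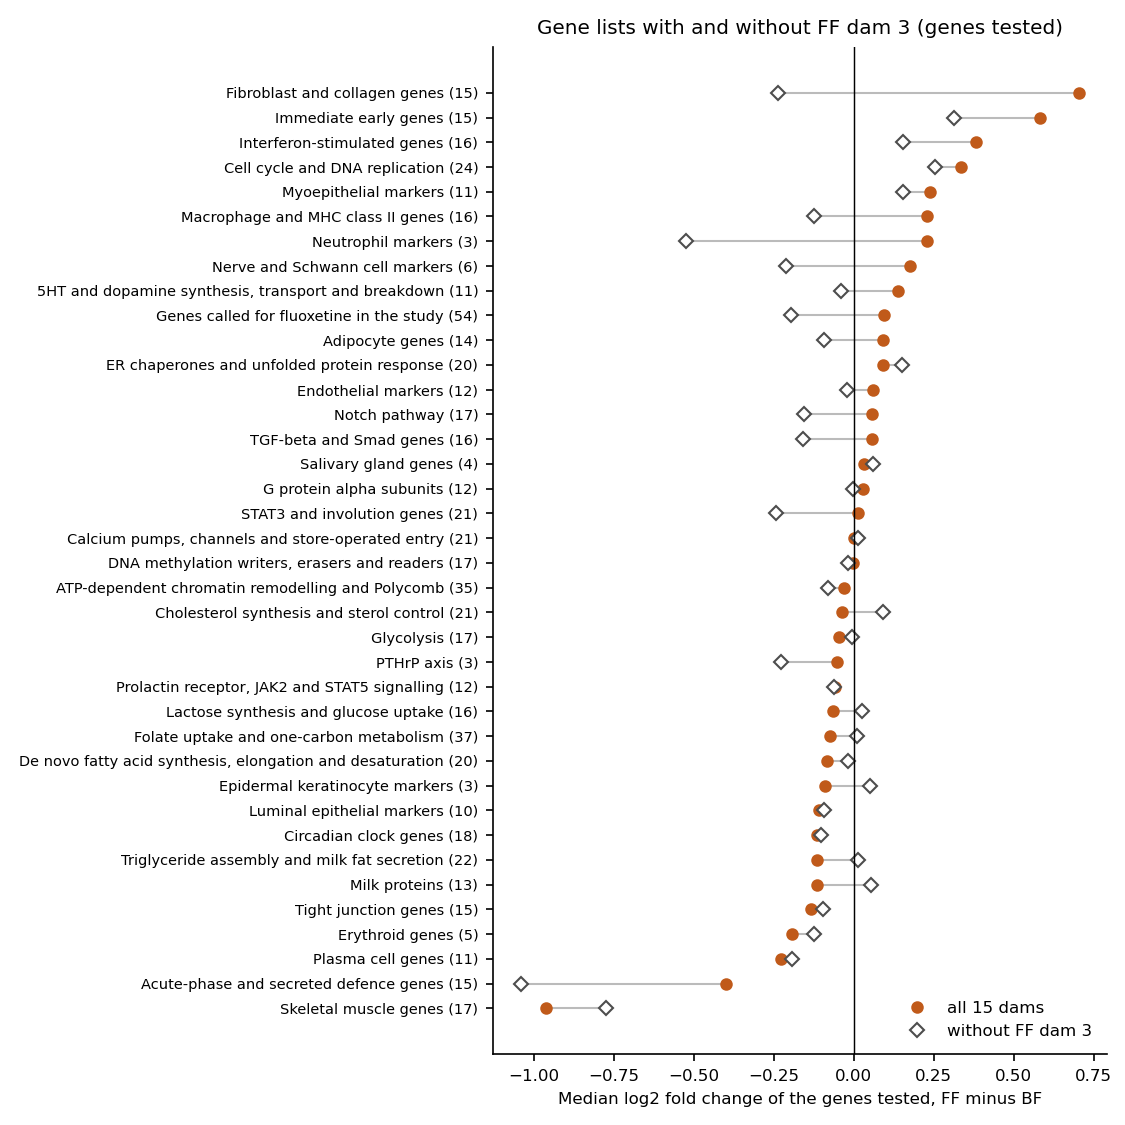
Median log2 fold change (FF minus BF) of each gene list with 3 or more genes past the filter, with all 15 dams (filled) and without FF dam 3 (open diamonds), the number of genes tested in brackets. The fibroblast and collagen list moves from 0.70 to -0.24 and the acute-phase list from -0.40 to -1.04, while folate, DNA methylation, lactose and calcium lists stay within 0.1 of 0 in both.

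The 56 genes that the study called for fluoxetine were followed to see whether diet shifted them while the drug was given. That list was chosen partly on these same libraries, so it is not independent evidence. Of 54 that passed the filter, 33 had higher and 21 lower levels in FF, with 2 higher and 3 lower at p of 0.05 or below, against 1.19% and 0.513% of all genes, and a median of 0.09. Without FF dam 3, 10 had higher and 42 lower levels, with a median of -0.20, and without BF dam 13 as well 11 and 41, with a median of -0.18. The summed level of the list was 4637 CPM in FF dam 3, 648 to 1026 in the other FF dams and 497 to 2709 in BF. Most of the list was chosen as higher under fluoxetine, with FF dam 3 among the libraries used. The fall without that dam is thus not separable from how the list was chosen. Whether diet opposed the drug was not tested. *Serhl*, a serine hydrolase-like gene of that list, had CPM of 5.98, 10.1 and 13.2 in BF and 5.27, 7.74 and 10.2 in FF (-0.37 ± 0.18, unadjusted p = 0.0518). *Jazf1*, a transcriptional cofactor, had 91 counts in all and did not pass the filter.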

How the data were processed

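Polyadenylated RNA of mammary glands was sequenced by the authors on an Illumina instrument, 1 library per dam. Per the submitters' processing notes, FastQC 0.11.7, Trim Galore 0.4.4, HISAT2, HTSeq and the GRCm39 build were used. The annotation release and the strand option are not given in the sources used here, so overlapping and antisense genes cannot be told apart. The deposited tables hold whole-number counts for each Ensembl gene, which the authors left unnormalized. Symbols and positions come from GENCODE vM39, which lacks 667 of the 55379 genes. Mitochondrially encoded genes were not analysed here.

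The 15 fluoxetine libraries were analysed in R 4.3.3 with edgeR 4.0.16. Genes were filtered with filterByExpr, which removed 42136, libraries were normalized with TMM, and FF was tested against BF with the robust quasi-likelihood test. Benjamini-Hochberg adjustment covered all genes tested, with a threshold of 10%. Each standard error is the size of the log2 fold change over the square root of its F value. CPM values carry the TMM factors. Since dams are separate animals, p-values measure the spread between dams. No pair of libraries of a group was alike within counting error. Library measures were compared with exact permutation tests over 6435 splits. For groups of more than 5 dams the lowest, median and highest values are given.

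The groups, 40 gene lists, alternatives and naming rule were chosen with earlier results of these data known. Named are genes past the FDR, the 8 genes of smallest p in each direction (named symbols only), the 5 of smallest p in each direction without FF dam 3, the 5 genes with the most counts, a list of genes the study or its question names, and up to 3 members of each list at p of 0.05 or below. Other list members were chosen as examples after their values were seen, and some genes named by the rule are left out of the text. The alternatives tried were the study's likelihood ratio test, DESeq2 1.42.0, voom with quality weights (limma 3.58.1), other filters and normalizations, the 20 most abundant genes left out, no robust estimation, a block on the dam number, and each dam left out. Leaving out FF dam 3 and BF dam 13 together, DESeq2 and the likelihood ratio test without FF dam 3, and the measures of genes detected and TMM factor were chosen after seeing the data. The code was also run on simulated data with set changes. Its outcome is not reported here, so the power to find a difference cannot be judged from it.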

Additional observations from a re-analysis of the deposited data

Results flagged for a closer look

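In each group of dams, the highest and the lowest library of 51 named genes and 5 library measures were set against the rest of their group, and a library was singled out where its gap to the next one passed Dixon's 95% critical value. Of 112 groups 41 gave such a library, and 20 of the 41 were FF dam 3, 13 of them on the high side. These counts have no chance rate to be set against. Many of the genes were named through p-values that 1 dam carried or through the fit without FF dam 3. Levels of several of them also rise and fall together. All values are CPM unless another unit is given, and no explanation was tested.

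FF dam 3 was low in the share of counts of the 20 most abundant genes (39.3%, next 72.6%) and of milk protein genes (18.1%, next 64.3%), and high in its TMM factor (2.79, next 1.10). It was the lowest FF library for *Csn2* (14780, next 139900), *Csn1s1* (11760, next 99210), *Csn1s2a* (13220, next 95510), *Pthlh* (1.18, next 18.7) and *Folr1* (29.0, next 307). It was the highest for *Rgs2* (6.55, next 3.65), *Klf4* (18.1, next 3.99), *Clca3a2* (27.5, next 5.68), *Wfdc2* (5.9, next 1.35), *Ppp1r9b* (43.4, next 25.2), *Saa1* (350, next 56.1), *Saa2* (335, next 17), *Tph1* (13.7, next 1.13), *Dnmt3a* (13.4, next 6.61), *Dpt* (73.4, next 13.9), *Fn1* (61.7, next 5.78) and *Kit* (57.6, next 0.681). The 3 caseins, the folate receptor and PTHrP were thus low in the library in which the matrix genes *Fn1* and *Dpt* and the serum amyloids *Saa1* and *Saa2* were high, while its summed level of acute-phase genes, 1974 CPM, lay within the range of the other FF dams.

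BF dam 13 was low in the share of the 20 most abundant genes (60.5%, next 74.9%) and of milk protein genes (51.4%, next 63.1%), with a TMM factor of 1.47 (next 0.980). It was the lowest BF library for *Csn1s1* (57040, next 134100) and *Csn1s2b* (21730, next 48510) and the highest for *Rnase1* (77.7, next 3.73), *Cxcl17* (18.9, next 6.61), *Saa1* (407, next 101), *Saa2* (205, next 50.7), *Slpi* (345, next 25.3) and *Wfdc17* (539, next 29). The serum amyloids *Saa1* and *Saa2* were thus high in 1 dam of each diet, and both dams were the lowest of their group in milk protein counts.

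The other dams were singled out for 1 or 2 genes each. BF dam 5 was high for *C4b* (799, next 163) and *Kit* (1.63, next 0.696). BF dam 9 was high for *Fn1* (6.55, next 3.02). BF dam 2 was high for *Tph1* (1.55, next 0.648) and low for *Marveld2* (4.73, next 6.9). BF dam 7 was high for *Nostrin* (0.818, next 0.558) and BF dam 8 for *Rad18* (1.61, next 1.02). Among FF dams, dam 4 was high for *Igkv9-124* (0.77, next 0.231), dam 5 for *Bax* (26.6, next 17.6) and dam 10 for *Wfdc17* (51.2, next 16.2).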

How the results depend on the processing

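The count of 0 genes at the FDR of 10% held when 1 dam was left out (all 15 fits), and with the likelihood ratio test, DESeq2, voom, both other filters, both other normalizations, the 20 most abundant genes removed and no robust estimation, but not with a block on the dam number. Genes at an unadjusted p of 0.01 or below were 43 with the likelihood ratio test, 38 with DESeq2, 30 with voom and 345 of 26797 with no filter on low counts, and 11 to 30 over the fits that left out 1 dam. Chosen after seeing the data, the fits without FF dam 3 gave 52 with DESeq2 (smallest adjusted p 0.167) and 46 with the likelihood ratio test (0.369). Genes at 0.05 or below were 2673 with no filter and 173 to 302 over the fits that left out 1 dam. Of these genes, 69.9% had higher levels in FF with all dams, 44.3% without FF dam 3, 39.9% with voom, 49.3% with no filter and 77.9% with upper quartile normalization. The cause was not tested. Depth limits the rare transcripts, such as *Slc6a4* with 27 counts over all libraries.

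Over up to 26 other fits for each of 51 named genes, 73 fits in 16 genes had the opposite sign, none of them a call at the FDR of 10%. The 95% intervals of these genes with all dams included 0, except for *Wfdc17* and *Kit*. With voom, the log2 fold change was 0.035 for *Wap*, 0.086 for *Csn2*, 0.012 for *Csn1s2b*, 0.022 for *Saa1*, -1.51 for *Saa2*, -0.26 for *Tph1*, 0.049 for *Lalba*, -0.053 for *Shmt2* and -0.75 for *Kit*. With DESeq2, the log2 fold change was -0.19 for *Tph1*, 0.34 for *Wfdc17* and -0.88 for *Kit*. With no filter, the log2 fold change was -0.017 for *Saa2*. With upper quartile normalization, the log2 fold change was 0.0017 for *Elovl6*. Without FF dam 3 and BF dam 13, the log2 fold change was 0.019 for *Wap*, 0.032 for *Csn2*, 0.0081 for *Csn1s2b*, -1.66 for *Saa2*, -0.22 for *Tph1*, 0.057 for *Lalba* and 0.37 for *Wfdc17*. Over the fits that left out 1 dam, it ranged from -0.16 to 0.14 for *Wap*, from -0.15 to 0.16 for *Csn2*, from -0.27 to 0.041 for *Csn1s1*, from -0.22 to 0.053 for *Csn1s2a*, from -0.17 to 0.14 for *Csn1s2b*, from -0.16 to 0.23 for *Elovl6*, from -2.03 to 1.21 for *Saa1*, from -3.01 to 1.43 for *Saa2*, from -0.19 to 2.003 for *Tph1*, from -0.21 to 0.12 for *Lalba*, from -0.082 to 0.12 for *Shmt2* and from -2.70 to 0.34 for *Wfdc17*.

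The dam numbers 2, 5 and 6 occur in both groups, and dams with the same number did not deviate together (correlations over genes of 0.00407, -0.0398 and -0.0272, ranks 4, 5 and 3 among the 8 FF dams). The dams were therefore treated as unpaired, although 3 correlations cannot exclude a link between dams of the same number. A fit with a replicate block on the dam number takes its diet difference only from the 3 numbers found in both groups. It therefore rests on 3 BF and 3 FF dams, with few degrees of freedom, and is not a fit of all 15 dams. In it, 30 genes were called at the FDR of 10%, 139 were at an unadjusted p of 0.01 or below and 567 at 0.05 or below. Of the 567, 35 were among the 226 genes found without the block, and 41.1% had higher levels in FF. With this block the log2 fold change was 0.32 for *Wap*, 0.16 for *Csn2*, 0.012 for *Csn1s1*, 0.29 for *Csn1s2b*, 0.24 for *Elovl6*, -2.34 for *Saa2*, -0.41 for *Tph1*, 0.095 for *Lalba*, -0.042 for *Dnmt1*, 0.37 for *Dnmt3b*, -0.077 for *Pgm5* and -1.25 for *Kit*.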

Other observations

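Lists not described above gave the following values in FF against BF. Interferon-stimulated genes had higher levels in 14 of 16 (median log2 fold change 0.38, and 12 of 16 with a median of 0.15 without FF dam 3), with 0 at an unadjusted p of 0.05 or below. *Oas1a*, an antiviral oligoadenylate synthetase, was at 0.90 ± 0.47 (0.42 ± 0.39 without FF dam 3) and *Ifit2*, an antiviral protein that binds RNA, at 0.73 ± 0.37 (0.45 ± 0.33), with FF dam 3 the highest library for both. Genes of the prolactin receptor, JAK2 and STAT5, which drive milk protein transcription, were 2 higher and 10 lower of 12 (median -0.06), with 11 intervals within 2-fold. Of the few markers of other cells that passed the filter, neutrophil genes were 2 higher and 1 lower of 3, T and B cell genes 0 higher and 2 lower of 2, nerve and Schwann cell genes 5 higher and 1 lower of 6, epidermal genes 1 higher and 2 lower of 3, and salivary gland genes 2 higher and 2 lower of 4. Without FF dam 3, nerve and Schwann cell genes were 2 higher and 3 lower of 5, epidermal genes 2 and 1 of 3, and neutrophil genes 1 and 1 of 2. T and B cell and salivary gland genes kept their split. The PTHrP axis had 1 higher and 2 lower of 3, and the 1 5HT receptor that passed the filter had a log2 fold change of -0.29.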
